A study of Mus musculus with 24 samples.

Results

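The Mbnl and Celf splicing regulators were taken from the expression table by gene symbol. All 9 of the 21553 genes with values were found, namely Mbnl1, Mbnl2 and Mbnl3 and Celf1 to Celf6, and the per-sample splicing table held 50 of their exons among 54141 exon events. The samples were 24 libraries of mouse cells that carried either the wild-type RNA polymerase II (genotype wt/wt, here WT) or the R749H substitution in both alleles of Polr2a, the gene of its largest subunit (genotype Polr2a[R749H/R749H], here slow/slow, after its reduced elongation rate). Each genotype was followed through 4 stages with 3 samples each, as ESCs grown undifferentiated, as neural precursor cells (NPC) at day 7, as PSA-NCAM+ cells at day 10 and as mature neurons that were replated at day 7 and kept for 14 more days. The mutation had been put into the ESCs by rounds of gene targeting, so the mutant polymerase was present in every cell and at every stage. The sources used here do not give the number of independent ESC lines, and slow/slow cells were plated for differentiation at another density than WT cells.

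The muscleblind-like (Mbnl) proteins bind YGCY motifs in RNA through zinc fingers and set alternative exons between immature and mature patterns. The CUGBP Elav-like (Celf) proteins bind GU-rich RNA, act on splicing, RNA stability and translation, and oppose Mbnl on many exons. In myotonic dystrophy, Mbnl proteins are held by expanded CUG repeats while Celf1 is stabilised, which returns exons to their fetal pattern. Celf1 and Celf2 are widely expressed, whereas Celf3 to Celf6 are best known from the nervous system.

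In GENCODE on GRCm38 the Mbnl genes lie on 3 chromosomes, Mbnl1 at chr3:60472830-60629750 and Mbnl2 at chr14:120275669-120431697 on the + strand, and Mbnl3 at chrX:51117269-51206532 on the - strand. Celf1 (chr2:90940382-91019497, +) and Celf2 (chr2:6539694-7509563, -) share a chromosome without being neighbours. Celf3 lies at chr3:94478295-94492198 (+), Celf5 at chr10:81459227-81482709 (-), Celf6 at chr9:59577917-59607292 (+), and Celf4 on chromosome 18 (-).

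Between 32974432 and 104466886 reads were counted per library, and 16627 genes, with all 9 members among them, entered the tests. The levels below are CPM, the read counts of a gene scaled by the size of its library, after TMM scaling that sets libraries on a common scale. A difference was called at a false discovery rate (FDR) under 0.05 over all genes tested with edgeR. Replicate 1 of the PSA-NCAM+ cells stood apart in both genotypes (correlation with its replicates 0.978 in WT and 0.960 to 0.965 in slow/slow, against 0.994 to 0.997 within the other groups), so that stage is also given without these 2 libraries. Genes of chromosome 8 were higher in slow/slow at all 4 stages (medians 0.45, 0.49, 0.46 and 0.44 on the log2 scale) and genes of chromosome 15 were lower in ESCs, NPCs and PSA-NCAM+ cells (medians -0.60, -0.57 and -0.56). The median over 5 genes of chromosome Y was lower at all 4 stages (-6.13, -7.30, -3.01 and -5.08). No member lies on these 3 chromosomes. Polr2a did not pass the test at the first 3 stages and was lower in slow/slow neurons by -0.94 on the log2 scale.

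**Figure D1:**
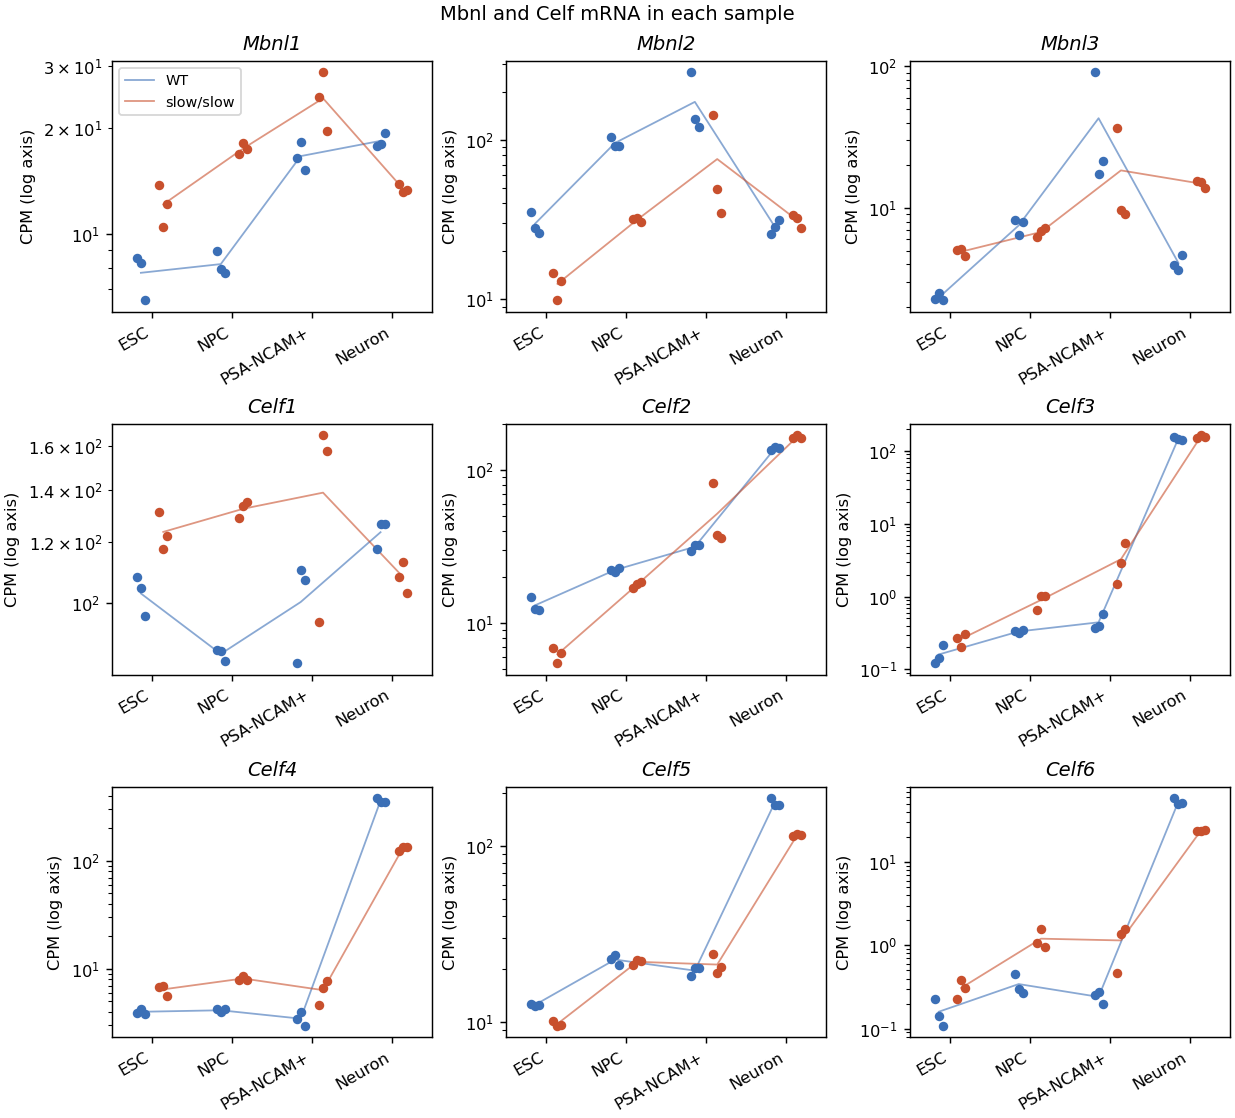
CPM of the 9 members on log axes in each of the 24 libraries, by stage, with WT in blue and slow/slow in red and lines through the group means. Celf3, Celf4 and Celf6 stay low until the neurons in both genotypes, and Mbnl2 is highest in PSA-NCAM+ cells.

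Per unit of gene length, the balance of the families shifted between the stages. The values in this paragraph are the authors' group means in RPKM, which carry no spread. From ESCs to neurons, the sums of the 3 Mbnl genes over the 4 WT stages were 8.41, 27.3, 63.9 and 11.5 RPKM. The 6 Celf genes summed to 46.8, 48.7, 56.4 and 279 RPKM at the same stages. WT PSA-NCAM+ cells were the group in which the mean Mbnl sum was above the mean Celf sum, and that order rested on replicate 1. When each group mean was divided over its libraries in proportion to their CPM, the Mbnl sums of the 3 WT PSA-NCAM+ replicates were 108, 43.0 and 41.0 RPKM and their Celf sums 48.0, 61.5 and 59.6 RPKM. The Mbnl sum was thus the smaller in replicates 2 and 3. In slow/slow cells the Mbnl sums were 6.55, 13.4, 29.2 and 17.7 RPKM, below WT at the first 3 stages and above it in neurons. The slow/slow Celf sums were 53.5, 68.9, 73.7 and 213 RPKM, above WT at the first 3 stages and below it in neurons.

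The leading gene of each family changed as well. Celf1 was the most abundant member in ESCs, NPCs and PSA-NCAM+ cells of both genotypes, at 39.2 to 59.8 RPKM, and Mbnl2 was the leading Mbnl gene in all 8 groups. In WT neurons Celf4 led with 93.0 RPKM, followed by Celf3 with 55.3, Celf1 with 54.0, Celf5 with 41.1, Celf6 with 20.0 and Celf2 with 15.8. In slow/slow neurons Celf3 led with 64.3 RPKM, ahead of Celf1 with 51.9 and Celf4 with 37.2, and Celf2 with 20.7 stood above Celf6 with 9.80. The 3 Mbnl genes held the last 3 places in neurons of both genotypes.

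**Figure D2:**
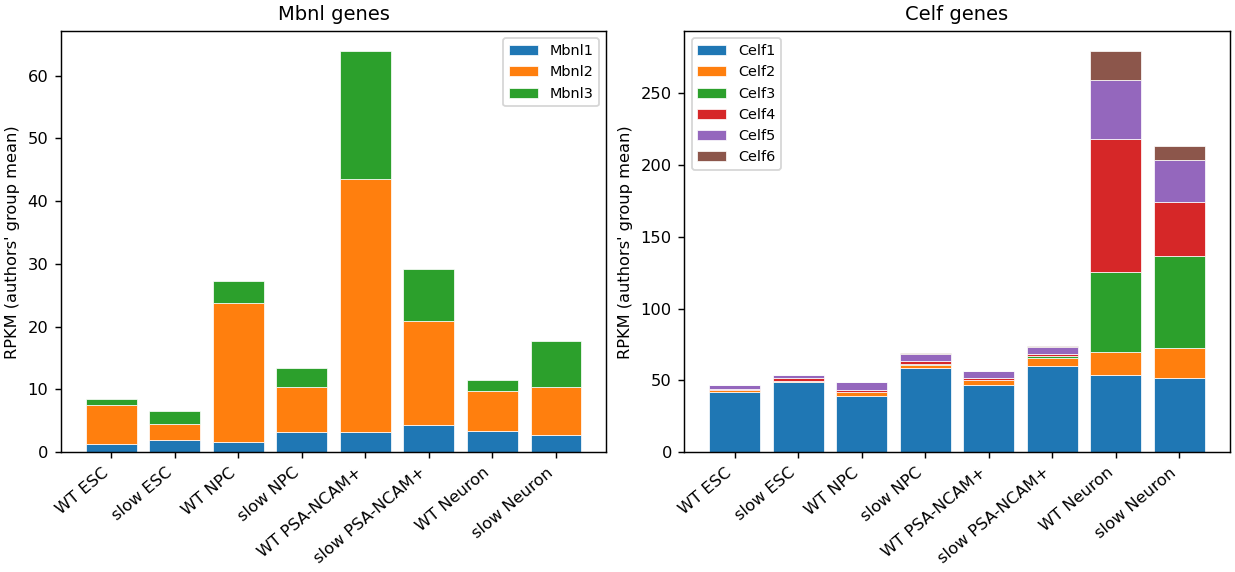
Stacked bars of the authors' group mean RPKM of the Mbnl genes (left) and Celf genes (right) in the 8 groups. The Mbnl bars peak in PSA-NCAM+ cells (63.9 RPKM in WT, 29.2 in slow/slow), where replicate 1 holds the most, and the Celf bars in neurons (279 and 213 RPKM).

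Mbnl2, the Mbnl paralogue best known from the brain, was lower in slow/slow cells before the neuronal stage and overlapped with WT in neurons. Its CPM in ESCs was 35.4, 28.0 and 26.1 in WT and 14.6, 9.84 and 13.1 in slow/slow. In NPCs it was 104, 91.7 and 91.5 in WT and 32.1, 32.2 and 30.6 in slow/slow. The groups did not overlap at either stage. The log2 fold change of slow/slow over WT was -1.26 ± 0.37 (SE, FDR 0.00911) in ESCs and -1.60 ± 0.36 (FDR 0.000859) in NPCs, with 3 samples per group here and below. The ESC call was lost without slow/slow ESC replicate 2 (-1.10, FDR 0.0523).

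Markers of other cell types differed between the genotypes at these stages too. In NPCs the 6 muscle markers summed to 87.1 to 92.8 CPM in WT and 17.5 to 20.2 in slow/slow (2 called higher and 2 lower), and the 4 mesenchyme markers to 68.0 to 82.8 against 28.8 to 36.9 CPM (2 lower). Neuron markers were at 29.5 to 29.8 against 108 to 129 CPM (5 of 6 higher) and neural progenitor markers at 37.5 to 38.9 against 124 to 166 CPM (4 of 4 higher). ESC markers summed to 2124 to 2211 CPM in WT NPCs and 1318 to 1448 in slow/slow NPCs (4 of 6 lower, 0 higher). In ESCs the neuron markers summed to 45.5 to 57.8 CPM in WT and 123 to 152 in slow/slow (2 of 6 higher), the muscle markers to 19.2 to 21.9 against 4.43 to 5.31 CPM (2 of 6 lower) and the mesenchyme markers to 42.1 to 45.0 against 15.2 to 18.8 CPM (1 higher and 2 lower). Over all genes, 29.3% were higher and 27.4% lower in slow/slow NPCs, and 18.5% were higher and 21.9% lower in slow/slow ESCs. The part of cell makeup in the ESC and NPC differences of the members was not tested. In bulk RNA, fewer cells of a type and less RNA per cell cannot be told apart.

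PSA-NCAM+ cells held the highest Mbnl2 levels and the widest spread, with CPM of 265, 135 and 120 in WT and 143, 49.6 and 34.7 in slow/slow. Replicate 1 was the highest sample of each genotype, so the groups overlapped although each slow/slow replicate lay below the WT replicate of its number. The log2 difference was -1.20 ± 0.35 (FDR 0.00705). It was -1.19 (FDR 0.181) in a fit of that stage alone, -0.75 (FDR 0.0768) without WT replicate 1, -0.93 (FDR 0.0530) without slow/slow replicate 2 and -1.60 (FDR 1.77e-09) without replicate 1 of both genotypes. In neurons Mbnl2 stood at 25.8, 28.5 and 31.6 CPM in WT and 34.1, 32.2 and 28.0 in slow/slow, with overlapping groups and a log2 difference of 0.14 ± 0.35 (FDR 0.771). A fit of the neurons alone called this difference.

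Along differentiation Mbnl2 rose in WT from ESCs to NPCs by 1.68 on the log2 scale (FDR 0.000392) and to PSA-NCAM+ cells by 2.54 (FDR 4.38e-06). WT neurons were back at the ESC level (-0.06, FDR 0.875). In slow/slow cells the rises were 1.34 in NPCs (FDR 0.00332) and 2.60 in PSA-NCAM+ cells (FDR 3.41e-06), and neurons remained above ESCs by 1.33 (FDR 0.00226). The difference between these ESC-to-neuron changes was itself called (1.39 ± 0.51, FDR 0.0321), though the call was lost in 7 of the 12 fits that left out 1 of its libraries (1.25 to 1.44, FDR 0.0502 to 0.0811 in those 7). In order of level, slow/slow ESCs were lowest, WT ESCs, slow/slow NPCs and the neurons of both genotypes overlapped with each other, and WT NPCs and WT PSA-NCAM+ cells lay above them. The slow/slow PSA-NCAM+ samples (34.7 to 143 CPM) overlapped with WT ESCs, WT NPCs and WT PSA-NCAM+ cells and lay above the other 4 groups.

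Mbnl1, the paralogue that predominates in muscle, was higher in slow/slow cells at the first 3 stages and lower in neurons. CPM in ESCs was 8.54, 8.29 and 6.49 in WT and 13.8, 10.5 and 12.2 in slow/slow. In NPCs the WT values of 8.94, 7.98 and 7.75 faced slow/slow values of 16.9, 18.1 and 17.5. These groups did not overlap, and the log2 differences were 0.65 ± 0.13 (FDR 0.00069) and 1.09 ± 0.13 (FDR 1.34e-06).

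In PSA-NCAM+ cells Mbnl1 measured 16.5, 18.3 and 15.2 CPM in WT and 24.5, 28.8 and 19.7 in slow/slow, a log2 difference of 0.55 ± 0.13 (FDR 0.0015) between groups that did not overlap. A fit of that stage alone lost the call (0.53, FDR 0.0877). In neurons it measured 17.8, 18.1 and 19.4 CPM in WT and 13.9, 13.2 and 13.4 in slow/slow, again without overlap. The neuronal difference of -0.45 ± 0.13 (FDR 0.00709) kept its sign but missed the threshold under upper-quartile scaling (-0.31, FDR 0.0633). That scaling moved the median of all genes in the neuron comparison from -0.06 to 0.08. WT neurons exceeded WT ESCs by 1.24 in Mbnl1 (FDR 3.13e-08), while slow/slow neurons and ESCs differed by 0.15 (FDR 0.304). The difference between these changes was called (-1.10 ± 0.19, FDR 0.0001).

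Mbnl3, the X-linked paralogue known from proliferating precursors, was the least stable measurement among the members. CPM in ESCs was 2.28, 2.50 and 2.23 in WT and 5.02, 5.18 and 4.55 in slow/slow, groups that did not overlap. The log2 difference of 1.08 ± 0.52 missed the threshold (FDR 0.106). The fit shares its estimate of spread over all groups, and without PSA-NCAM+ replicate 1 of both genotypes the same difference (1.09) had an FDR of 1.14e-07.

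In NPCs Mbnl3 overlapped between the genotypes, at 8.17, 6.44 and 7.96 CPM in WT and 6.28, 6.85 and 7.20 in slow/slow (-0.15, FDR 0.809). In PSA-NCAM+ cells it was 90.1, 17.3 and 21.3 CPM in WT and 36.4, 9.62 and 9.12 in slow/slow. Replicate 1 was several times the other samples of its genotype in both. The log2 difference was -1.23 ± 0.48 (FDR 0.0351) over all samples and -1.04 (FDR 6.72e-08) without replicate 1 of both genotypes. It was -1.22 (FDR 0.311) in a fit of that stage alone, -0.07 (FDR 0.884) without WT replicate 1 alone, -0.88 (FDR 0.168) without slow/slow replicate 2 and -0.87 (FDR 0.165) without slow/slow replicate 3.

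The neuronal difference of Mbnl3 was the clearest, with 3.94, 3.66 and 4.67 CPM in WT and 15.6, 15.2 and 13.7 in slow/slow (1.86 ± 0.50, FDR 0.00398). The groups did not overlap. From ESCs, WT cells rose by 1.69 in NPCs (FDR 0.00726) and 4.20 in PSA-NCAM+ cells (FDR 1.19e-06), and the WT neuron value of 0.82 was not called (FDR 0.147). Slow/slow cells rose by 1.89 in PSA-NCAM+ cells (FDR 0.00217; 0.93 and FDR 0.0511 without slow/slow PSA-NCAM+ replicate 1) and by 1.59 in neurons (FDR 0.00638).

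Replicate 1 of the PSA-NCAM+ cells also differed in the markers of other cell types. The summed level of 4 mesenchyme markers was 517 CPM in WT replicate 1 against 189 and 279 in replicates 2 and 3, and 661 CPM in slow/slow replicate 1 against 172 and 144. The 6 neuron markers summed to 24.5 CPM in WT replicate 1 against 39.1 and 40.4, and to 74.9 in slow/slow replicate 1 against 168 and 260. Muscle markers differed between the genotypes beyond replicate 1. The 6 of them summed to 126, 99.2 and 125 CPM in WT and 72.9, 45.6 and 40.1 in slow/slow. Of these markers 1 was called higher (28.6% of all genes were) and 2 lower (28.1%). The part of such cells in the Mbnl2, Mbnl3 and Celf2 values of that stage was not tested.

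Celf1, the member raised in myotonic dystrophy, had no called stage difference from ESCs in either genotype (-0.26 to 0.27 on the log2 scale). Without slow/slow PSA-NCAM+ replicate 1, that stage was called above ESCs in slow/slow cells (0.39, FDR 0.000543, against 0.17 over all samples). Without replicate 1 of both genotypes, WT NPCs (-0.26, FDR 0.000213), WT neurons (0.26, FDR 0.000126) and slow/slow neurons (-0.19, FDR 0.00276) were called as well. Its CPM in NPCs was 86.8, 86.6 and 83.8 in WT and 129, 134 and 135 in slow/slow, without overlap (0.63 ± 0.14, FDR 0.00074). In PSA-NCAM+ cells it was 83.4, 110 and 107 in WT and 94.5, 165 and 158 in slow/slow, with overlap through replicate 1 (0.47 ± 0.14, FDR 0.00648; 0.45 and FDR 0.204 in a fit of that stage alone). The ESC values of 108, 104 and 96.0 CPM in WT and 131, 118 and 122 in slow/slow did not overlap, but the difference of 0.27 was not called (FDR 0.134). In neurons the WT values were 117, 127 and 126 CPM and the slow/slow values 108, 113 and 103 (-0.19, FDR 0.251). Without PSA-NCAM+ replicate 1 of both genotypes, the ESC (FDR 0.000289) and neuron (FDR 0.00424) differences were called. The neuron difference was also called in a fit of the neurons alone.

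Celf2, expressed in brain, heart and muscle, began lower in slow/slow cells and ended slightly above WT. ESC values were 14.8, 12.3 and 12.2 CPM in WT and 6.94, 5.48 and 6.35 in slow/slow (-1.07 ± 0.21, FDR 0.000432). NPC values were 22.3, 21.6 and 22.9 in WT and 17.1, 17.9 and 18.7 in slow/slow (-0.31, FDR 0.188). Neuron values were 134, 140 and 139 in WT and 163, 169 and 162 in slow/slow (0.25, FDR 0.288). The groups did not overlap at any of these stages, and the NPC and neuron differences were called without PSA-NCAM+ replicate 1 of both genotypes (FDR 0.000411 and 0.00151). The neuron difference was also called in a fit of the neurons alone.

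In the PSA-NCAM+ comparison of Celf2, slow/slow replicate 1 stood far above the other samples. WT cells measured 29.7, 32.4 and 32.5 CPM and slow/slow cells 82.2, 37.7 and 35.8. The log2 difference of 0.72 ± 0.20 (FDR 0.00443) became 0.18 (FDR 0.0590) without replicate 1 of both genotypes, and it was not called in a fit of that stage alone (0.71, FDR 0.178). The groups did not overlap, and the call was lost in 0 of the 6 fits that left out 1 library. Celf2 rose at every stage in both genotypes, by 3.40 in WT neurons (FDR 6.81e-12) and 4.72 in slow/slow neurons (FDR 1.36e-13) over ESCs. That rise was larger in slow/slow cells by 1.32 ± 0.29 (FDR 0.000985).

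Celf3, Celf4, Celf5 and Celf6, the neural members, rose in neurons of both genotypes. In WT the log2 rise from ESCs to neurons was 9.85 for Celf3 (FDR 4.6e-15), 6.50 for Celf4 (FDR 2.33e-18), 3.82 for Celf5 (FDR 1.18e-18) and 8.33 for Celf6 (FDR 3.01e-14). In slow/slow cells it was 9.26, 4.34, 3.57 and 6.26 (FDR 9.8e-15, 2.83e-16, 4.97e-18 and 1.02e-12). The rise was smaller in slow/slow cells for Celf4 by -2.16 ± 0.18 (FDR 2.17e-08) and for Celf6 by -2.07 ± 0.53 (FDR 0.00358), whereas the differences for Celf3 (-0.59, FDR 0.504) and Celf5 (-0.26, FDR 0.0756) were not called.

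Celf4, which binds many synaptic mRNAs in excitatory neurons, showed the largest neuronal loss among the members. WT neurons held 383, 350 and 354 CPM and slow/slow neurons 125, 135 and 135. The log2 difference was -1.46 ± 0.12 (FDR 1.03e-08), between groups that lay far apart. At the earlier stages the order was the opposite, as ESCs held 3.90, 4.27 and 3.85 CPM in WT and 6.85, 6.98 and 5.57 in slow/slow (0.70 ± 0.14, FDR 0.000414). NPCs and PSA-NCAM+ cells gave 0.98 ± 0.13 (FDR 5.17e-06) and 0.89 ± 0.13 (FDR 1.33e-05), with no overlap between genotypes at any stage. The PSA-NCAM+ call was lost in a fit of that stage alone (0.86, FDR 0.0574).

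Celf6 followed the same order at lower levels. WT neurons held 59.0, 49.8 and 51.7 CPM and slow/slow neurons 23.8, 23.6 and 24.1 (-1.17 ± 0.25, FDR 0.000645). In NPCs it was 0.458, 0.302 and 0.270 CPM in WT and 1.07, 1.58 and 0.961 in slow/slow (1.83 ± 0.34, FDR 0.000131). In PSA-NCAM+ cells it was 0.254, 0.272 and 0.195 CPM in WT and 0.470, 1.38 and 1.59 in slow/slow (2.29 ± 0.34, FDR 1.12e-05). The groups did not overlap at these 3 stages. ESC levels lay between 0.108 and 0.389 CPM, from 5 to 19 reads per library, and the ESC difference of 0.90 was not called (FDR 0.130).

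Celf5 was lower in slow/slow neurons and ESCs and level between. Neuron values were 188, 171 and 172 CPM in WT and 114, 117 and 115 in slow/slow (-0.61 ± 0.08, FDR 1.88e-06). ESC values were 12.6, 12.3 and 12.6 in WT and 10.2, 9.49 and 9.60 in slow/slow (-0.36 ± 0.08, FDR 0.00156). The groups were separate at these stages, and the NPC (-0.04, FDR 0.665) and PSA-NCAM+ (0.11, FDR 0.230) differences were not called.

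Celf3 was the neural member whose neuronal level did not differ by the test over all samples, at 156, 149 and 143 CPM in WT and 152, 165 and 158 in slow/slow (0.08 ± 0.24, FDR 0.796). A fit of the neurons alone called this difference. Celf3 was higher in slow/slow cells before that stage. PSA-NCAM+ cells held 0.370, 0.389 and 0.570 CPM in WT and 1.47, 2.86 and 5.46 in slow/slow (2.92 ± 0.33, FDR 3.66e-07). NPCs held 0.333, 0.317 and 0.345 CPM in WT and 0.660, 1.03 and 1.01 in slow/slow (1.39 ± 0.40, FDR 0.00634), and neither pair of groups overlapped. ESC values lay between 0.122 and 0.310 CPM over both genotypes and gave no call (0.67, FDR 0.412). The Celf3 gene body overlaps Riiad1 on the opposite strand, and Mbnl2, Celf2, Celf4 and Celf5 overlap annotated antisense genes. Whether counting used strand is not given in the sources used here, so reads of these partners may be included.

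**Figure D3:**
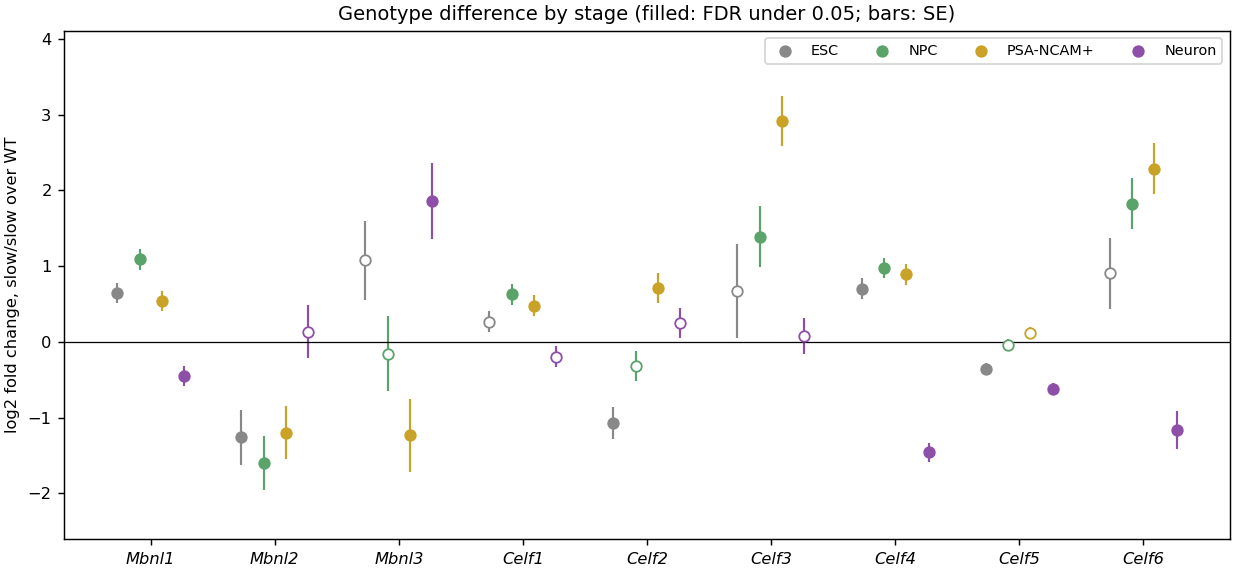
Log2 fold change of slow/slow over WT for each member and stage, with bars for the SE and filled points for an FDR under 0.05. Celf4 and Celf6 lie above 0 at the first 3 stages and at -1.46 and -1.17 in neurons, and Mbnl2 lies below 0 until the neurons.

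Counted over the family, 2 members were higher (18.5% of all genes tested were) and 3 lower (21.9%) in slow/slow ESCs, where 40.4% of all genes were called. At the NPC stage 5 were higher (29.3%) and 1 was lower (27.4%), with 56.7% of all genes called. Of the members in PSA-NCAM+ cells, 6 were higher (28.6%) and 2 lower (28.1%), again with 56.7% called. Neurons had 1 member higher (23.4%) and 4 lower (28.4%), with 51.9% called. Changes of at least 2-fold were called for 2, 4, 4 and 3 members at the 4 stages, against 13.7%, 21.5%, 22.8% and 20.2% of all genes. The genotypes did not overlap for 7, 7, 5 and 7 members, against 59.8%, 74.7%, 43.1% and 75.6% of all genes.

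The median log2 fold change over the 9 members was 0.65, 0.63, 0.55 and -0.19 at the 4 stages, against -0.02, 0.01, -0.01 and -0.06 over all genes. Mbnl1 and Celf4 were the members called at all 4 stages, and both moved from higher to lower between PSA-NCAM+ cells and neurons. Without PSA-NCAM+ replicate 1 of both genotypes, 8, 7, 7 and 7 members were called.

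Against ESCs, the WT members that were higher numbered 5, 6 and 6 at the later stages, where 34%, 37.6% and 43.4% of all genes were higher. In slow/slow cells 7 were higher each time, against 33.9%, 39.2% and 44% of all genes. No member was called lower than in ESCs at any later stage, while 31.6%, 33.6% and 39.4% of all genes were in WT and 28.4%, 34.2% and 38.4% in slow/slow. With a 2-fold minimum, 3 members were higher in WT NPCs, against 30.9% of all genes called in either direction. Some of the calls against ESCs were fragile. The Celf6 rise in WT NPCs (1.02, FDR 0.0460) was lost without WT ESC replicates 2 (0.95) or 3 (0.76) and without WT NPC replicates 1 (0.77) or 2 (1.09), and with the replicate number as a block (FDR 0.0611). The Celf3 rise in WT PSA-NCAM+ cells (1.45, FDR 0.0171) was lost without WT ESC replicate 1 (1.22) or WT PSA-NCAM+ replicate 3 (1.22). The Celf4 rise in slow/slow NPCs (0.33, FDR 0.0378) was lost in 5 of the 6 fits that left out 1 library (0.22 to 0.35).

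The change of the genotype difference from ESCs was called for 1, 4 and 5 members at the later stages, against 24.6%, 27.1% and 42.1% of all genes. In NPCs this was Celf5 (0.32 ± 0.11, FDR 0.0488), a call that was lost under RLE and upper-quartile scaling, without the filter, with DESeq2 and with the replicate block (FDR 0.0548 to 0.111), and in 11 of the 12 fits that left out 1 library. In PSA-NCAM+ cells they were Mbnl3 (-2.31 ± 0.71, FDR 0.0192), Celf2 (1.78 ± 0.29, FDR 0.000104), Celf3 (2.25 ± 0.73, FDR 0.0269) and Celf5 (0.47 ± 0.11, FDR 0.0039). In neurons they were Mbnl1, Mbnl2, Celf2, Celf4 and Celf6, with the values given above. These comparisons share the ESC samples.

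The markers of the labelled cells bear on the neuron values. Of 6 neuron markers tested, 4 were lower in slow/slow neurons (28.4% of all genes were), none was higher (23.4%), and their summed level was 2560 to 2756 CPM in WT and 2290 to 2454 in slow/slow. All 4 mesenchyme markers were higher (211 to 266 CPM in WT, 549 to 585 in slow/slow), 4 of 6 muscle markers were higher at low levels (4.89 to 5.55 against 7.97 to 15.0 CPM), and 3 of 4 neural progenitor markers were higher (885 to 1058 against 1078 to 1249 CPM). Of 4 astrocyte markers tested, 3 were lower and 1 higher (166 to 205 against 84.4 to 96.2 CPM over the list of 5). ESC markers were higher in 4 of 6 and lower in 1 (204 to 246 against 240 to 265 CPM), endoderm markers higher in 4 of 5 and lower in 1 (48.7 to 56.5 against 41.3 to 58.3 CPM), and oligodendrocyte lineage markers higher in 2 and lower in 2 of 5 (69.6 to 91.1 against 45.9 to 68.5 CPM). The same shares of all genes, 23.4% higher and 28.4% lower, stand beside each of these lists in neurons. In PSA-NCAM+ cells all 6 neuron markers were higher in slow/slow (24.5 to 40.4 CPM in WT, 74.9 to 260 in slow/slow), where 28.6% of all genes were higher. The part of cell makeup in the Celf4, Celf5, Celf6 and Mbnl3 differences was not tested.

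The members' own alternative exons are a second readout. Inclusion is given as PSI, the percent of transcripts that contain the exon, estimated from reads over its junctions. A change was called where the mean PSI differed by over 10 points with a posterior probability of its sign above 0.95. The 54-base exon of Mbnl1 and Mbnl2 encodes part of a nuclear localisation signal and is itself repressed by Mbnl protein, the 36-base exon affects self-association, and the 95-base exon shifts the reading frame of the C-terminus. The sequences below, from the GENCODE transcripts of GRCm38 and on the + strand, are those of some of the coding member exons whose inclusion is described below. The Mbnl1 54-base exon, which had too few reads to be tested, is printed beside its paralogue. Exons were matched by length and by the lengths of both flanking introns, since the splicing table is in mm9.

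The 54-base exons of Mbnl1 (chr3:60614683-60614736) and Mbnl2 (chr14:120395712-120395765) were identical at 46 of 54 positions (85.2%), and capitals mark the positions that differ.
Mbnl1 54-base exon: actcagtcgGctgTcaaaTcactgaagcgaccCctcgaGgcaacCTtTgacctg
Mbnl2 54-base exon: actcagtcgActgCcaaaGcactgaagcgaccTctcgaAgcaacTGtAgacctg

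In the next sequences capitals mark YGCY, searched on the RNA strand as TGCT or the form TGCC or the form CGCT or the form CGCC, with overlapping matches counted. The Mbnl2 95-base exon (chr14:120404638-120404732) held 2 such motifs, where 68.0% of the 975 coding exons of that length held at least 1 and 39.2% at least as many. The Celf1 186-base exon (chr2:91010393-91010578) held 5, where 90.5% of 569 exons of its length held at least 1 and 20.9% at least as many. The Celf6 150-base exon (chr9:59603448-59603597) held 2, where 83.5% of 1115 exons of its length held at least 1 and 59.4% at least as many.
Mbnl2 95-base exon: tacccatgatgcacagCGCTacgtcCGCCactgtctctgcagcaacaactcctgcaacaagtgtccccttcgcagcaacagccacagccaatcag
Celf1 186-base exon: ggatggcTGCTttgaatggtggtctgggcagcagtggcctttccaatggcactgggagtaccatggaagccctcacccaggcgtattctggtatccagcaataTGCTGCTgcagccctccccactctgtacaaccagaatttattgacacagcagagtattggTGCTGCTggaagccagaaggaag
Celf6 150-base exon: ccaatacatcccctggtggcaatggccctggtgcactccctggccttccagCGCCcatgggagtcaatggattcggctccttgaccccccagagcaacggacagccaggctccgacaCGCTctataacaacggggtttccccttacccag

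Of the 50 member exons, 29 passed the read filters in at least 1 comparison, and 1 was called between the genotypes. It was the Celf6 150-base exon, whose inclusion in neurons was 77.0%, 83.3% and 83.1% in WT and 97.4%, 92.5% and 91.9% in slow/slow. The groups did not overlap, and inclusion was higher in slow/slow by 12.8 points (posterior 0.986), in libraries with 71 reads or more. With limma on the logit of the reads it missed the threshold (FDR 0.0532). It was the only call among 26 member exons tested in neurons, where 3.55% of all exons were called. None was called among 3 tested in ESCs (0.809% of all exons called), 12 in NPCs (2.93%) and 19 in PSA-NCAM+ cells (0.966%). In simulated exons with a 25-point change the test recovered 46.5% at 30 reads per sample, 87.5% at 60 and all at 120, so changes in exons with few reads were detected less often. The simulated replicates differed by the sampling of reads only and started from middle inclusion levels, so recovery in these data may be lower.

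The Celf1 186-base exon, singled out after its values were seen, was less included in slow/slow cells at every stage without reaching 10 points. Mean inclusion in WT was 93.6%, 93.3%, 91.6% and 93.5% from ESCs to neurons. In slow/slow it was 88.0%, 85.8%, 83.9% and 87.4%. The differences were -5.63, -7.52, -7.74 and -6.18 points, with posteriors of 0.982, 0.9999, 0.992 and 0.99996, at least 622 reads in each library, and no overlap of the groups at any stage. Smaller differences in the opposite direction stood in neurons for the Celf4 84-base exon (92.3%, 92.2% and 93.0% in WT, 96.3%, 97.0% and 98.1% in slow/slow) and the Celf3 126-base exon (95.3%, 97.1% and 95.0% against 99.3%, 99.7% and 98.8%), also chosen after their values were seen.

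Among the member exons that could be tested against ESCs, the Mbnl2 54-base exon changed most. In WT it was included at 82.6%, 81.8% and 80.7% in ESCs and at 56.0%, 65.8% and 50.5% in neurons, a fall of 24.3 points (posterior 0.995). In PSA-NCAM+ cells inclusion was already 46.9%, 62.2% and 61.6% in WT and 45.7%, 67.6% and 64.0% in slow/slow. Slow/slow neurons stood at 35.4%, 44.2% and 56.4%, overlapping with WT, and the difference of -12.1 points was not called (posterior 0.821; -17.6 points and 0.953 without slow/slow replicate 3). The ESC comparison could not be made because slow/slow ESCs gave too few reads at this exon. Inclusion there was 100% in each library, from 22 to 25 reads, under the filters. The Mbnl1 36-base exon, singled out after its values were seen, had too few reads for a test in any comparison. It was included at 22.3%, 14.2% and 13.6% in WT PSA-NCAM+ cells (28 to 31 reads, under the filters) and at 93.8%, 88.7% and 86.3% in WT neurons (42 to 57 reads). Slow/slow PSA-NCAM+ cells stood at 22.5%, 36.4% and 46.0% (37, 78 and 53 reads, replicate 1 under the filters). Slow/slow neurons stood at 75.1%, 100% and 58.5% (36, 23 and 10 reads, replicates 2 and 3 under the filters).

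The Mbnl2 95-base exon fell in WT from 94.3%, 94.0% and 90.6% in ESCs to 83.0%, 81.7% and 78.5% in NPCs (-11.9 points, posterior 0.991). It was 1 call among 6 member exons tested in WT NPCs, where 2.42% of all exons were called. WT neurons (86.9%, 73.5% and 83.5%) lay -11.7 points below ESCs with a posterior of 0.949, just short of the threshold. The Celf1 152-base exon fell in WT from 40.3%, 38.7% and 43.2% in ESCs to 29.1%, 32.3% and 27.8% in neurons (-11.0 points, posterior 0.986), and the call was lost without WT ESC replicate 3 (-9.79 points). With the Mbnl2 54-base exon it made 2 calls among 6 tested in WT neurons (5.31% of all exons called). In slow/slow cells none of 5 member exons tested was called in NPCs (0.763% of all exons) or neurons (3.89%), and the Celf1 152-base exon stood at -9.15 points in neurons (posterior 0.907). The Mbnl2 54-base and 95-base exons, called in WT, could not be tested against ESCs in slow/slow cells, so the sets of exons differ between the genotypes. In slow/slow ESCs the 95-base exon stood at 100% in each library (25 to 44 reads, replicate 2 under the filters). The unequal calls were not tested against each other.

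**Figure D4:**
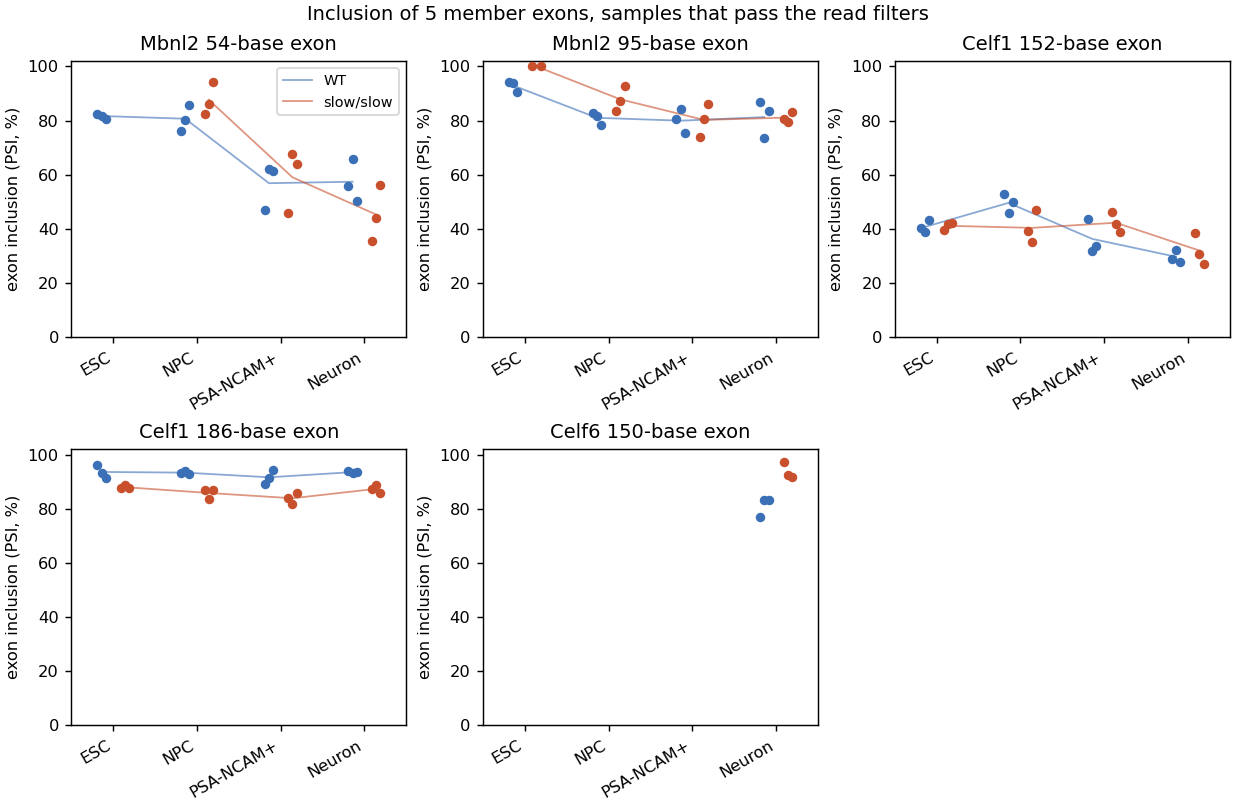
Inclusion (PSI, percent) of 5 member exons by stage in the libraries that pass the read filters, WT in blue and slow/slow in red, with lines through group means. The Celf1 186-base exon is lower in slow/slow at each stage, and the Mbnl2 54-base exon falls towards the neurons.

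Exons known as Mbnl targets were described beside the regulators. The list held 33 gene symbols with 283 exon events. It was drawn up with results of these data known, so its shares of called exons are a description and not a test. In NPCs, 17 of 119 tested exons were called (14.3%, against 2.93% of all exons). Of these, 6 were more and 11 less included in slow/slow, where 0.801% and 2.12% of all exons were. ESCs had 2 of 98 (2.04%, against 0.809%), PSA-NCAM+ cells 4 of 141 (2.84%, against 0.966%) and neurons 6 of 150 (4%, against 3.55%). The median absolute difference of the tested list exons in NPCs was 0.30 points, against 0.35 over all exons.

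The largest difference was in the 39-base exon of Kif13a (mm9 chr13:46875995-46876033), a kinesin motor that carries vesicles. Its inclusion in NPCs was 54.1%, 62.7% and 58.0% in WT and 17.6%, 9.55% and 21.1% in slow/slow (-42.2 points). In ESCs it was 40.9%, 42.2% and 32.5% in WT and 13.4%, 9.30% and 15.4% in slow/slow (-25.8 points). In PSA-NCAM+ cells slow/slow replicate 1 (47.9%) lay within the WT range (52.2%, 37.9% and 50.9%), while replicates 2 and 3 (12.2% and 11.7%) lay below it. The 105-base exon of the same gene moved the other way in NPCs, from 30.8%, 38.0% and 40.1% in WT to 65.2%, 66.3% and 59.8% (27.4 points).

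The other named exons were less included in slow/slow NPCs. They were the 12-base exon of Tead1, a transcription factor of the Hippo pathway (36.6%, 30.7% and 36.8% in WT, 10.5%, 3.16% and 9.16% in slow/slow), and the 15-base exon of Spna2, the alpha spectrin gene (38.7%, 41.6% and 43.0% against 13.8%, 13.3% and 16.0%). The 3-base exon of Clasp2, a microtubule plus-end protein, differed by -23.9 points and the 63-base exon of Csnk1d, a casein kinase, by -20.8 points. The posteriors of these NPC differences ran from 0.995 upward. The Clasp2 exon was higher in slow/slow neurons by 10.7 points, the opposite of NPCs. The part of Mbnl or Celf levels in these exons was not tested.

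**Figure D5:**
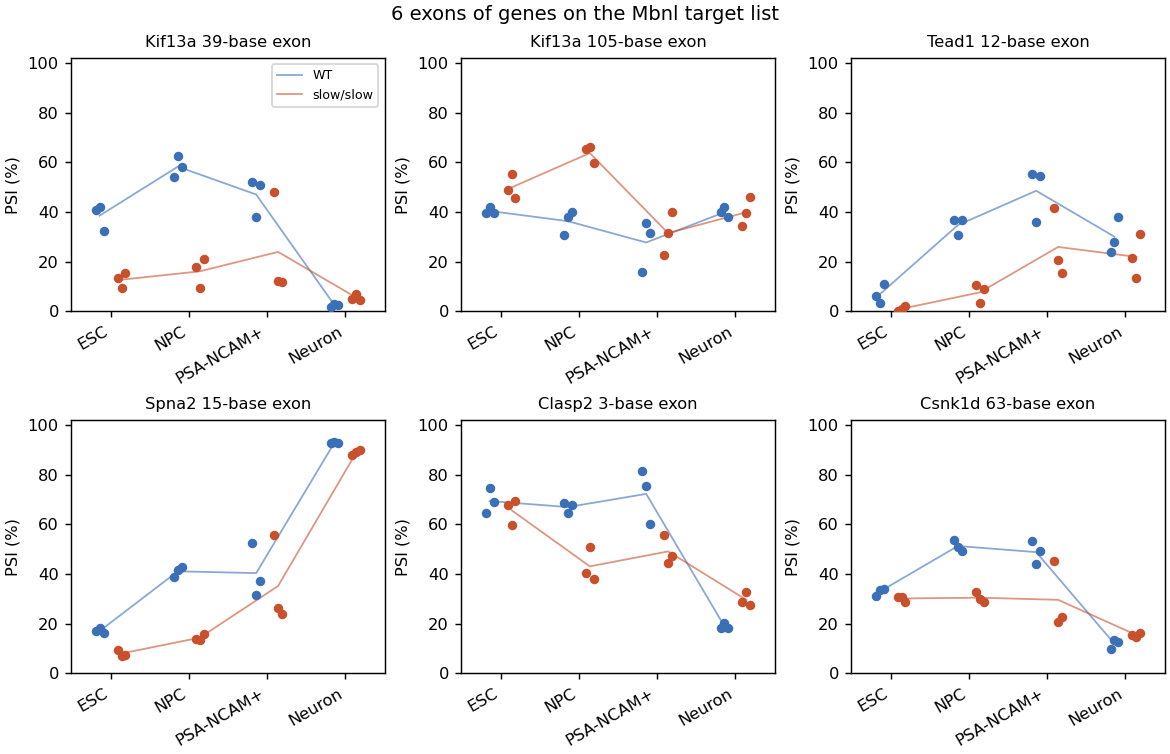
Inclusion (PSI, percent) of the 6 named exons of Mbnl target genes by stage in the libraries that pass the read filters, WT in blue and slow/slow in red, with lines through group means. In NPCs the genotypes are apart in all 6 exons, by -42.2 points in the Kif13a 39-base exon.

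Other genes of the CUG-repeat pathway were measured as a fixed list of 10, which holds Dmpk, the gene whose repeat causes myotonic dystrophy, its neighbour Six5 and kinases that act on Celf1. From ESCs to neurons, 4, 3, 6 and 5 of them were higher in slow/slow cells and 1, 1, 2 and 4 were lower. Over all genes, 18.5%, 29.3%, 28.6% and 23.4% were higher and 21.9%, 27.4%, 28.1% and 28.4% lower at these stages. Prkca, a kinase that phosphorylates Celf1, was at 34.4, 33.6 and 32.2 CPM in WT neurons and 11.7, 9.85 and 9.62 in slow/slow (-1.68 ± 0.11, FDR 3.69e-10). Dmpk was at 13.6, 11.8 and 12.6 CPM in WT neurons and 22.5, 19.8 and 19.2 in slow/slow (0.70 ± 0.14, FDR 0.000303). Six5 was higher by 1.11 and Hnrnph1 by 0.34, and Gsk3b (-0.28) and Stau1 (-0.26) were lower.

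Among 17 other neural splicing regulators tested, 6, 10, 14 and 3 were higher in slow/slow cells from ESCs to neurons, and 2, 1, 0 and 6 were lower, beside the same shares of all genes. Nova1, a neuronal regulator that binds YCAY motifs, had the smallest FDR, at 322, 316 and 301 CPM in WT neurons and 136, 132 and 127 in slow/slow (-1.25 ± 0.18, FDR 1.15e-05). Khdrbs2, a STAR family regulator, was at 13.8, 13.1 and 12.5 CPM in WT neurons and 5.94, 5.69 and 5.04 in slow/slow (-1.24 ± 0.31, FDR 0.00211). Rbfox2 (-0.46) was lower, and Qk (0.61), Ptbp2 (0.34) and Elavl1 (0.39) were higher.

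The genes most like each member over the 24 samples, by Pearson's r of log2 CPM, divided the family again. Celf3 (Myt1 and Scg3, both 0.993), Celf4 (Mllt11, 0.993), Celf5 (Apba1, 0.992) and Celf6 (Rab33a, 0.992) each matched genes with an r above 0.99. These members were highest in the neurons, and the part of the neuron samples in these r values was not tested. Celf2 was most like Senp7 (0.988). Mbnl1 was most like Prpf4b (0.966), Mbnl2 like Dysf (0.966), Mbnl3 like 9430020K01Rik (0.924) and Celf1 like Cstf2 (0.923). The points share libraries, and these values are a description.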

How the data were processed

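Poly(A)+ RNA of 24 samples, 3 per genotype and stage, was sequenced with a stranded kit in paired reads and mapped by the authors to mm9. The deposited expression table gives the authors' raw counts per gene and sample and, per the file headers, the authors' group mean RPKM. The deposited splicing table gives, from vast-tools, each exon's inclusion in percent per sample, with quality scores that hold its read numbers. The submitters' processing notes name bcl2fastq 2.17.1.14 and edgeR. The authors' own fold changes, p-values and calls in these files were not used. The methods describe 3 independent differentiation experiments but do not name PSA-NCAM+ cells there. No libraries were identical.

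Counts of 16627 genes passing filterByExpr were fitted in 1 edgeR 4.0.16 model of 8 groups (quasi-likelihood, TMM, Benjamini-Hochberg FDR under 0.05), with contrasts for genotype at each stage, stage against ESC, and their interaction. Means and spread then come from all samples. RLE and upper-quartile scaling, no filter, DESeq2 1.42.0, a replicate block, stage-only fits, a 2-fold minimum and leaving out each library were alternatives. Exons needed a coverage score of LOW, OK or SOK and, except for microexons, whose balance score is blank, a balance score of OK or B1 in all 6 samples. A beta mixture over replicates gave the posterior; limma 3.58.1 was an alternative. Both procedures were tested on simulated data.

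All 9 members were named, with each member exon that was called, the 6 genes of smallest FDR in neurons in each of the regulator and CUG lists, 6 of the 8 target exons of largest difference (the others are not reported here), and the most similar genes. Members and lists were chosen with earlier results of these data known. Gene positions and exon sequences are from GENCODE on GRCm38, to which 94.9% of genes matched by identifier. Same-numbered samples deviated together in the PSA-NCAM+ genotype comparison (correlations 0.40 to 0.54 for all 3 pairs), and not in the other comparisons. WT replicate 2 with slow/slow replicate 3 (0.40) and WT replicate 3 with slow/slow replicate 2 (0.24) did so too. Replicate 1 stood apart in both genotypes, so these values do not show that the numbers pair replicates 2 and 3. The fits of that stage alone had no replicate block. P-values measure the spread between these samples. The symbols Sox1, Map2, Sptan1 and Ptbp3 were not analysed here. Sptan1 is another symbol of the alpha spectrin gene, whose exons were analysed as Spna2.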

Additional observations from a re-analysis of the deposited data

Results flagged for a closer look

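For 10 combinations of member and stage, the genotype difference was not the same as in ESCs by the interaction test of edgeR (FDR under 0.05 over all genes). In neurons the log2 change of the difference was -1.10 for Mbnl1, 1.39 for Mbnl2, 1.32 for Celf2, -2.16 for Celf4 and -2.07 for Celf6. In PSA-NCAM+ cells it was -2.31 for Mbnl3, 1.78 for Celf2, 2.25 for Celf3 and 0.47 for Celf5. In NPCs it was 0.32 for Celf5 (FDR 0.0488), a call lost in 11 of the 12 fits that left out 1 library (FDR 0.0601 to 0.136 in those 11) and under 5 other settings. The Celf2 and Mbnl3 values in PSA-NCAM+ cells include replicate 1 of each genotype, which stood apart. The Mbnl3 value was -1.15 (FDR 0.107) without WT PSA-NCAM+ replicate 1 and -1.98 (FDR 0.0527) without slow/slow PSA-NCAM+ replicate 2. The Celf3 value was 1.96 (FDR 0.122) without WT ESC replicate 3, 2.09 (FDR 0.0594) without slow/slow ESC replicate 2 and 2.11 (FDR 0.0606) without WT PSA-NCAM+ replicate 1. Groups of 3 samples are too small for a test of single outlying samples.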

How the results depend on the processing

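Numbers of members called moved by over 1.5 times as follows. With a 2-fold minimum, genotype calls were 2 in ESCs, 4 in PSA-NCAM+ cells and 3 in neurons, and WT NPCs had 3 against ESCs. In fits of 1 stage alone, 2 (Celf3 and Celf6) were called in PSA-NCAM+ cells and 9 in neurons, where the main model did not call Mbnl2, Celf1, Celf2 and Celf3. The interaction in NPCs fell to 0 under RLE and upper-quartile scaling, no filter, DESeq2 and the replicate block (Celf5 FDR 0.0548). Without PSA-NCAM+ replicate 1 of both genotypes, an alternative chosen after seeing the data, 8 members were called in ESCs, 5 in the NPC interaction and 8 in the neuron interaction, and 1 member exon was called in PSA-NCAM+ cells. Member exon calls fell to 0 in neurons and WT NPCs and to 1 in WT neurons at a 15-point minimum, and to 0 in neurons under limma.

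Leaving out each library gave 4 to 5 genotype calls in ESCs, 6 to 8 in PSA-NCAM+ cells, 0 to 1 in the NPC interaction and 2 to 7 in the PSA-NCAM+ interaction, the low and high ends of the last without WT and slow/slow PSA-NCAM+ replicate 1. Exon calls ranged 0 to 1 in NPCs, 0 to 1 in PSA-NCAM+ cells, 1 to 2 in neurons, 1 to 2 in WT NPCs, 2 to 3 in WT neurons and 0 to 1 in slow/slow NPCs and neurons.

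The values that changed sign were all uncalled and close to 0 in the full data, and the cause was not tested. Without single libraries they ranged from -0.078 to 0.0058 for Celf5 in NPCs, -0.051 to 0.14 for Mbnl1 in WT NPCs, -0.12 to 0.079 for Celf1 in WT PSA-NCAM+ cells, -0.17 to 0.063 for Mbnl2 in WT neurons, -0.17 to 0.15 for Celf4 in slow/slow PSA-NCAM+ cells, and, in the PSA-NCAM+ interaction, -0.22 to 0.053 for Mbnl1 and -0.77 to 0.51 for Mbnl2. Celf1 was 0.0046 under upper-quartile scaling, and Mbnl2 was -0.00062 with the replicate block. Without PSA-NCAM+ replicate 1 of both genotypes, Celf5 in PSA-NCAM+ cells was -0.042, Celf1 was 0.080, Celf4 was 0.14 and the Mbnl2 interaction was -0.33. Beside Celf5 in the NPC interaction and Celf6 in WT NPCs, the replicate block changed no member call. Depth limited Celf3 and Celf6 before the neurons and exons with few reads.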
